A study of Mus musculus with 2 samples.

Results

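The genes described here are the histone modifiers and chromatin remodellers of the mouse: protein-coding genes of chromosomes 1 to 19 and X named Kdm, Kmt, Hdac, Sirt, Setd, Smarc or Ezh, together with Chd1 to Chd9 and Brd1 to Brd9. This gave 84 members of 21755 protein-coding genes in the GENCODE annotation of GRCm38 (mm10). They fell into 5 roles: 20 methyltransferases, 17 demethylases, 18 deacetylases, 22 remodellers and 7 bromodomain readers. The series measured DNase-seq in left cerebral cortex from 2 males of the F1 cross B6CASTF1/J (C57BL/6J by CAST/EiJ), 36 days old, with 1 library per mouse. In this assay, nuclei are treated with DNase I, an enzyme that cuts DNA where chromatin is accessible. Both mice form 1 untreated group, here replicate 1 and replicate 2, so each value is given for both mice and there is no test between conditions. Their labels name the same donor entry yet number them as separate males.

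Nucleosomes are marked and moved by large enzyme families. Methyltransferases and deacetylases change the chemical state of histone tails, demethylases remove methyl groups, bromodomain proteins bind acetylated lysines, and the SWI/SNF, ISWI and CHD ATPases slide or evict nucleosomes. Most of these proteins work in complexes that nearly every cell uses, and in neurons they take part in activity-dependent transcription and in the exchange of subunits as cells stop dividing.

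The shorter of the authors' peak lists held 72021 peaks in replicate 1 and 59150 in replicate 2. Peak heights were whole multiples of a step in each library (99.9986% and 100% of heights within 0.02 of a step), and were read as cuts scaled to depth, which puts the libraries at 160.1 and 145.4 M cuts. The highest promoter peak of a member rested on 116 to 2224 cuts in replicate 1 and on 83 to 1790 in replicate 2. The excitatory neuron markers Slc17a7, Camk2a, Tbr1 and Neurod6 had a promoter peak in both mice. Of 3 inhibitory neuron markers, 2 had one in replicate 1 and 1 in replicate 2. Of 3 astrocyte markers, 1 and 0 had one, and of 3 oligodendrocyte markers, 1 and 2. None of the 4 microglial and 3 endothelial markers did. Among markers from elsewhere, 2 of 4 hindbrain genes had one in replicate 1 and 0 in replicate 2, and 1 of 2 liver and muscle genes in both. In whole tissue, fewer cells with an open site and less cutting per cell cannot be told apart.

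A promoter peak is a peak that comes within 1 kb of any annotated start site of the gene, and the promoter height is that of the highest such peak. A promoter peak was listed for 83 of 84 members in replicate 1 (98.8%, 95% Wilson interval 93.6 to 99.8%, counting over genes) and for 81 in replicate 2 (96.4%, 90.0 to 98.8%). Over all coding genes the shares were 63.5% and 58.4%. In both mice together 81 members had one, beside 57.7% of coding genes. Hdac7 and Smarca1 had a promoter peak in replicate 1 alone, against 5.87% of coding genes, and 0 members in replicate 2 alone, against 0.745%. Kdm6b had none in either mouse, as did 35.7% of coding genes. Members more often started in CpG-rich sequence: 63 of 84 (75%) had an observed-to-expected CpG ratio of at least 0.6 over 1 kb, beside 46.3% of coding genes. Of coding genes with such a start, 95% and 89.1% had a promoter peak in replicates 1 and 2 and 88.8% in both, and of the 63 members all had one in both. Among genes with such starts the members' share was therefore closer to that of coding genes.

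Over members with a peak, the median promoter height was 5.75 and 3.53 in the mice (mean of the medians 4.64 ± 1.57, SD, n = 2). Over all coding genes with a peak it was 4.40 and 2.65 (3.53 ± 1.24). Above the coding median lay 59 of 83 members in replicate 1 and 53 of 81 in replicate 2. Members also had more annotated start sites, a median of 7 against 3, which gives the highest peak more places to lie. More than 1 promoter peak was found for 73.5% and 66.7% of members, beside 53.0% and 45.4% of coding genes. By role, the medians were 6.59 and 3.47 for remodellers, 6.51 and 3.98 for methyltransferases, 5.68 and 3.94 for demethylases, 5.52 and 2.42 for bromodomain readers and 4.52 and 3.28 for deacetylases. The order of the roles was not the same in the mice: deacetylases were lowest in replicate 1 and bromodomain readers in replicate 2.

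The sequences that carry the accessible sites are shown for matches to short patterns in a footprint of both mice. A footprint is a short stretch that is protected from cutting, and a match counts as in it where the footprint covers at least 50% of its letters. Each stretch is read from the RefSeq sequence of GRCm38.p6 along the strand of the gene, 5′ to 3′, and capitals mark the matched letters. This reference is of C57BL/6J, and CAST/EiJ alleles of these mice may differ from the letters shown and searched. The pattern GCGCATGCG, named for NRF1, a factor of broadly used promoters, was found this way at 6 of the 81 members with a peak in both mice (7.41%), beside 3.25% of coding genes with one. Of these, the stretches at Kdm5c, Kmt2c, Sirt5 and Smarcc1 are shown because the match is long and rare.
Kdm5c, chrX:152232907-152232987 (+ strand): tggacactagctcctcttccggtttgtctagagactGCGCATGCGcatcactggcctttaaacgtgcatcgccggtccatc
Kmt2c, chr5:25499594-25499674 (- strand): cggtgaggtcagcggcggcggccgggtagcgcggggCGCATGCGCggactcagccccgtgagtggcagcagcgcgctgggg
Sirt5, chr13:43365568-43365627 (+ strand): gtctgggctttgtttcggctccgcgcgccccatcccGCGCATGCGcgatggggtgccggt
Smarcc1, chr9:110131871-110131951 (+ strand): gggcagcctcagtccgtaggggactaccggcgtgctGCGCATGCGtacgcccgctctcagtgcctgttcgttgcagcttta
The pattern TGACGTCA, the palindrome bound by CREB-type factors, lay in a footprint of both mice at Chd2 and Brd2 (2.47%, beside 3.15% of coding genes), whose highest peaks are both inside the gene. The Chd2 stretch is shown because it lies in the promoter peak with the highest mean of all members.
Chd2, chr7:73537855-73537934 (- strand): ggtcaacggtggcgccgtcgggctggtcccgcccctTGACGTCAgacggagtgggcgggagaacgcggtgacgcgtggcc
The pattern CCAATC, the core of the NF-Y site, did so at 7 members (8.64%, beside 4.49%), among them Kmt2e and Setd1b, whose highest peak lies upstream of the gene.
Kmt2e, chr5:23433394-23433471 (+ strand): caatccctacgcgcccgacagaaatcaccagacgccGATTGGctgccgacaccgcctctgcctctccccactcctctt
Setd1b, chr5:123141109-123141186 (+ strand): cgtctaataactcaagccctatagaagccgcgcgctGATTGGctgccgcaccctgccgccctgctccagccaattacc
Ezh2, chr6:47595080-47595157 (- strand): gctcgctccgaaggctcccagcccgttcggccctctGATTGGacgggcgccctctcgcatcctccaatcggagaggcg
Setd5, chr6:113077212-113077289 (+ strand): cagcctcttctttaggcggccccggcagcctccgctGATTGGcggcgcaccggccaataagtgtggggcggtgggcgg
The E-box CACGTG did so at Kdm4c and Kdm6a (2.47%, beside 2.81%). Matches were searched in 300 bp centred on the peak, and that of Kdm4c lies outside the replicate 2 peak, chr4:74251841-74251900.
Kdm4c, chr4:74251790-74251867 (+ strand): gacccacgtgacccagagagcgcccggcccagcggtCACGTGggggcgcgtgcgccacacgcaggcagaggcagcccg
Kdm6a, chrX:18162512-18162574 (+ strand): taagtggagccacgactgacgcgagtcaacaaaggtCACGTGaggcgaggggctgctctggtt
The GC box GGGCGG, bound by SP and KLF factors, did so at 35 members (43.2%, beside 37.1%), and the 3 shown belong to the highest promoters of their roles.
Smarca4, chr9:21615954-21616031 (+ strand): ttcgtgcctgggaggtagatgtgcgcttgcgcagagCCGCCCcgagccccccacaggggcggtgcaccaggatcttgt
Hdac4, chr1:92180373-92180450 (- strand): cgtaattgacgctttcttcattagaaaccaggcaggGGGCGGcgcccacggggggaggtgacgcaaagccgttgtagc
Setd3, chr12:108179359-108179436 (- strand): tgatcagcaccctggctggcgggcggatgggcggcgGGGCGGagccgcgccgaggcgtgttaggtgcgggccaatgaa

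Among the methyltransferases, 20 of 20 had a promoter peak in both mice. Setd3, a SET domain protein known to methylate actin, had the highest mean, with 9.66 in replicate 1 and 10.5 in replicate 2 (10.1 ± 0.625, SD, n = 2). Kmt2e, a catalytically inactive member of the MLL family, had 9.41 and 6.95. Kmt5c, which trimethylates histone H4 in heterochromatin, had 7.18 and 9.06. These 3 promoters were the highest of the role by their means, and in Setd3 and Kmt5c replicate 2 was the higher mouse. The peak of Kmt2e lies 44.5 bp from a lincRNA start and 1060.5 bp from its own. That of Setd3 is nearer to the start of Ccnk than to its own in both mice. Kmt2a, the founding MLL gene, stood at 11.2 in replicate 1 but at 4.75 in replicate 2, and its paralog Kmt2b at 8.83 and 4.60. By their means Setd7 was lowest with 2.82 and 1.39 (2.10 ± 1.01), followed by Setd6 with 3.97 and 1.80, both monomethyltransferases that also act on proteins other than histones. The Polycomb enzyme Ezh2, known for its part in dividing cells, had 7.98 and 3.93. Its paralog Ezh1, known from cells that no longer divide, had 4.92 and 2.04, and so was lower than Ezh2 in both mice. By deposited heights, not scaled between the libraries, Ezh1 of replicate 1 lay above Ezh2 of replicate 2.

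In the demethylases, 16 of 17 had a promoter peak in each mouse, with Kdm6b the exception. Kdm4b, a demethylase of lysine 9 in histone H3, was highest, with deposited heights nearly equal in the mice, 9.77 and 9.57 (9.67 ± 0.145). Kdm3a, which acts on the same residue, had 8.39 and 6.62, and Kdm4c 9.28 and 5.12. The lowest with a peak in both mice were Kdm2b, a subunit of a Polycomb complex that binds unmethylated CpG, with 3.72 and 1.80, and Kdm5b with 4.15 and 1.60. The paralogs of Kdm5b stood higher than it in both mice: Kdm5a had 7.46 and 3.46 and the X-linked Kdm5c 4.22 and 4.00. In replicate 1 Kdm5c was nearly equal to Kdm5b. The flavin-dependent Kdm1a (LSD1), part of the CoREST complex, had 6.43 and 2.61. Kdm1b had 8.70 and 4.91, in a peak that also lies at the start of Tpmt.

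The deacetylases divide into zinc-dependent Hdac genes and NAD-dependent sirtuins. Hdac4, a class IIa enzyme that shuttles between cytoplasm and nucleus in neurons, had 11.7 and 12.3 (12.01 ± 0.435), the highest promoter in replicate 2 of any member. This peak lay 15228.5 and 15258.5 bp inside the gene, 129.5 and 99.5 bp from an annotated start. The Hdac4 paralog Hdac5 had 6.84 and 6.43, Hdac9 2.30 and 2.31, and Hdac7 2.04 in replicate 1 with no peak in replicate 2. Across class IIa the range within a mouse was thus wider than the difference between the mice for any of these genes. In class I, Hdac1 had 6.71 and 4.88, Hdac3 5.02 and 3.16, Hdac2 4.55 and 1.77, and the X-linked Hdac8 1.29 and 0.571. Hdac8 had the lowest height of any member with a peak in both mice, and Hdac1 exceeded Hdac2 in both. Sirt2, a cytoplasmic tubulin deacetylase abundant in myelinating cells, led the sirtuins with 8.21 and 9.50, and its peak also lies at the start of Nfkbib. The mitochondrial Sirt3 had 6.67 and 4.13 and the nuclear Sirt6 5.67 and 3.62. Sirt5 was lowest of the 7 sirtuins by its mean, with 3.02 and 1.52.

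The remodellers held the highest promoters in replicate 1. Chd2, a CHD ATPase, had 13.9 and 10.7 (12.3 ± 2.26), and Smarca4 (BRG1), an ATPase of the SWI/SNF or BAF complex, 12.9 and 9.51 (11.2 ± 2.39). Smarca4 was above its alternative ATPase Smarca2 (BRM), which had 10.1 and 5.85. Among other BAF subunits, Smarcc1 with 9.48 and 6.27 lay above Smarcc2 with 4.33 and 2.13 in both mice. The highest Smarcc1 peak is intronic and lies by a start inside the gene. At its 5′ end Smarcc1 had 5.77 and 2.41, in replicate 2 close to Smarcc2. Smarcd2 with 8.95 and 8.32 lay above Smarcd1 with 6.76 and 3.47 and Smarcd3 with 3.46 and 2.13. Of the Smarcc pair, Smarcc2 is the form known to be used more as cells become neurons. The neuron-restricted subunit gene Actl6b, which is no member, had 4.82 and 2.55 against 6.74 and 6.71 for Actl6a. In the CHD group, Chd8 had 10.1 and 6.45, Chd4, the ATPase of the NuRD complex in most cells, 4.08 and 5.63, Chd3 4.40 and 2.35, and Chd5, its brain-enriched paralog, 2.61 and 1.29. Chd7, known for its part in neural crest development, had 3.30 and 0.998, and with Chd5 it had the lowest mean of the role among those with a peak in both mice. The ISWI ATPase gene Smarca5 had 5.57 and 2.79, and its paralog Smarca1 0.725 in replicate 1 alone.

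The bromodomain readers had a promoter peak in 7 of 7 cases in both mice. Brd2 and Brd3 encode BET proteins, which bind acetylated histones and act in transcription elongation. Brd2 was highest of the role with 11.1 and 7.97 (9.55 ± 2.24), and Brd3 had 5.52 and 3.06. Brd1 was lowest with 3.54 and 1.21. The BAF subunit gene Brd7 had 5.81 and 1.31 and Brd9 4.93 and 1.46. As deposited, all 7 were higher in replicate 1, and their median ratio of replicate 1 to replicate 2 was 2.92, the largest of the 5 roles.

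The highest promoter peak sat close to a start site in most members. Its midpoint lay within 250 bp of one for 72 of 83 members in replicate 1 (86.7%) and 67 of 81 in replicate 2 (82.7%). Of coding genes with a peak, 85.3% and 84.4% did so. The median position was -55.5 and -57.5 bp, where negative is upstream. The peak was upstream of the nearest start in 71 of 83 and 71 of 81 members (85.5% and 87.7%), beside 66.2% and 75.8% of coding genes. The highest peaks of the mice overlapped in 75 of 81 members (92.6%), beside 92% of coding genes, and the 6 in which they did not were Brd8, Chd8, Hdac5, Kdm5a, Sirt1 and Smarcd3, named here because of that result.

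In 7 of 81 members (8.64%) a noncoding gene's start was nearer to the highest peak than any own start in both mice, beside 2.66% of coding genes: Chd2, Kmt2c, Kmt2d, Kmt2e, Setd1b, Setd5 and Smarcc2. Of these, Kmt2c, Kmt2d, Kmt2e and Setd1b belong to the MLL and SET1 families, whose active members methylate lysine 4 of histone H3. They are described for this position of their peaks. The other genes of these families had their highest peak closer to an own start: 184.5 and 174.5 bp upstream in Kmt2a, 254.5 and 304.5 bp in Kmt2b and 98.5 and 118.5 bp in Setd1a. The highest peak of Kmt2c, chr5:25499541-25499840, had heights of 10.3 and 4.20 and lay 907.5 bp upstream of the gene, while the peak at the own start had 2.65 and 0.998. At Kmt2e the highest peak, chr5:23433261-23433500, had 9.41 and 6.95, 1060.5 bp upstream and 44.5 bp from the start of the oppositely transcribed lincRNA 5031425E22Rik. Peaks nearer to the Kmt2e start reached 6.03 and 3.29. At Setd1b the highest peak had 5.48 and 5.43, 161.5 and 71.5 bp from the start of the lincRNA AI480526, and the peak within 500 bp of the own start had 2.14 in replicate 1 and none was listed in replicate 2. Kmt2d likewise had 6.03 and 3.24 upstream, and within 500 bp of its start only 1.41 in replicate 1. A window of 500 bp in place of 1 kb leaves these genes with the lower peaks.

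**Figure D1:**
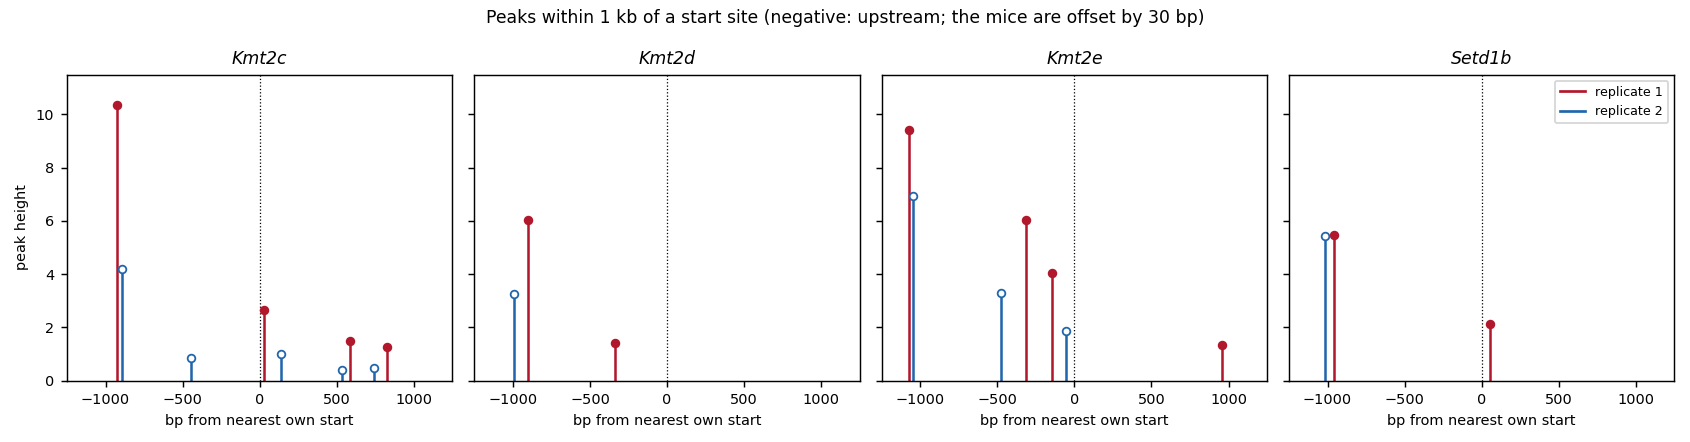
Height of every peak within 1 kb of a start site of Kmt2c, Kmt2d, Kmt2e and Setd1b against the distance of its midpoint from the nearest own start, replicate 1 filled and replicate 2 open. The 4 genes were chosen because their highest peak in both mice lies about 1 kb upstream.

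The height of Chd2 does not belong to its main start. The peak chr7:73537761-73538020 is intronic, 3939.5 bp inside the gene (chr7:73426638-73541830, minus strand). It lies by the start of a short annotated transcript of Chd2, 269.5 bp away, and of the antisense gene Gm44686, 122.5 bp away. At the 5′ end of the gene the height was 1.23 in replicate 1, with no peak listed in replicate 2. By the start sites that RefSeq gives, which do not hold the short transcript, Chd2 would be 1.23 and 0 and not the highest member. The CRE-type stretch printed above is part of this intronic peak. Brd2 (chr17:34112023-34122634, minus strand) showed a like arrangement. Its highest peak in replicate 1, chr17:34119261-34119740, lay in an exon 3133.5 bp inside the gene and held 11 and 9 footprints in the mice, and it was 40.5 bp from an annotated start of H2-DMa on the other strand. The peak at the 5′ end of Brd2 had 8.49 and 3.50, lower in both mice. Other members also had their highest peak by a start inside the gene, among them Hdac4, Kdm4c, Brd3 and Chd3. At the 5′ end Hdac4 had 1.84 and Chd3 1.19 in replicate 1, with no peak listed in replicate 2. Kdm4c and Brd3 had no peak listed there in either mouse.

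A coding start on the other strand lay within 1 kb of the highest peak's midpoint in both mice for 12 members (14.8%, beside 18.4% of coding genes): Brd2, Brd8, Brd9, Hdac3, Kdm1b, Kdm4d, Kdm5a, Setd3, Setdb2, Sirt2, Sirt3 and Sirt6. Both starts lay inside the peak in both mice in Hdac3, Kdm1b, Setdb2, Sirt2 and Sirt3, and for these 5 the height cannot be assigned to either gene (6.17% of members, beside 9.01% of coding genes). At Hdac3 and Rell2 the starts were 63 bp apart. The nearest starts of Brd8 and Kif20a were 59 bp apart at the peak of replicate 1 and 406 bp apart at the other peak that was highest in replicate 2. At Sirt6 the peak lay 34.5 and 84.5 bp from its own start and 939.5 and 889.5 bp from that of Ankrd24. Setd3 and Ccnk lay 265 bp apart, with the peak 206.5 and 226.5 bp from the start of Setd3 and 58.5 and 38.5 bp from that of Ccnk. In replicate 2 the Setd3 start lay outside the peak. On either strand, a coding start of another gene was within 1 kb of the highest peak in 14.5% and 16.0% of members, beside 19.5% and 20.7% of coding genes.

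The members without a promoter peak were of different kinds. Kdm6b (chr11:69398508-69413675, minus strand), an inducible demethylase of lysine 27 in histone H3, had no peak within 1 kb of its GENCODE starts, yet 12 and 10 peaks in its body with flanks of 10 kb. Its 3 peaks upstream of the gene in replicate 1 had heights of 5.39, 3.93 and 2.79, and those in replicate 2 had 4.05, 2.48 and 3.36. The peak chr11:69418001-69418280 lay 0.5 bp from a RefSeq start at position 69418140, which GENCODE does not list. This start belongs to a predicted transcript alone. The curated RefSeq transcript starts at 69416194, and no peak was listed within 1 kb of it in either mouse. Inside the gene, a peak lay 50.5 and 60.5 bp from another predicted start, 69411230, with 4.17 and 3.97. With RefSeq starts Kdm6b had a promoter height of 5.39 and 4.05, from peaks 850.5 and 920.5 bp from position 69418140. These lay above the coding medians of 4.40 and 2.65, which rest on GENCODE starts. The peak 0.5 bp from the RefSeq start had 3.93 and 2.48, below those medians. The Kdm6b paralog Kdm6a on X had 7.14 and 7.12. Hdac7, known from blood vessels and thymus, had 2.04 in replicate 1 at an alternative start inside the gene and no base at a false discovery rate of 0.05 or less around any start in replicate 2. With RefSeq starts it had 5.68 and 2.31, from the intronic peak chr15:97812221-97812480. That peak lay 722.5 and 712.5 bp in the mice from a start that only predicted RefSeq transcripts hold. It lay 2512.5 and 2522.5 bp from the nearest GENCODE start. Smarca1 (chrX:47809368-47892974) had the lowest height of any member in replicate 1, 0.725, and RefSeq starts gave it no peak in replicate 2 either. It was also the only member with no peak in its body and 10 kb in replicate 2, and it had 1 in replicate 1.

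**Figure D2:**
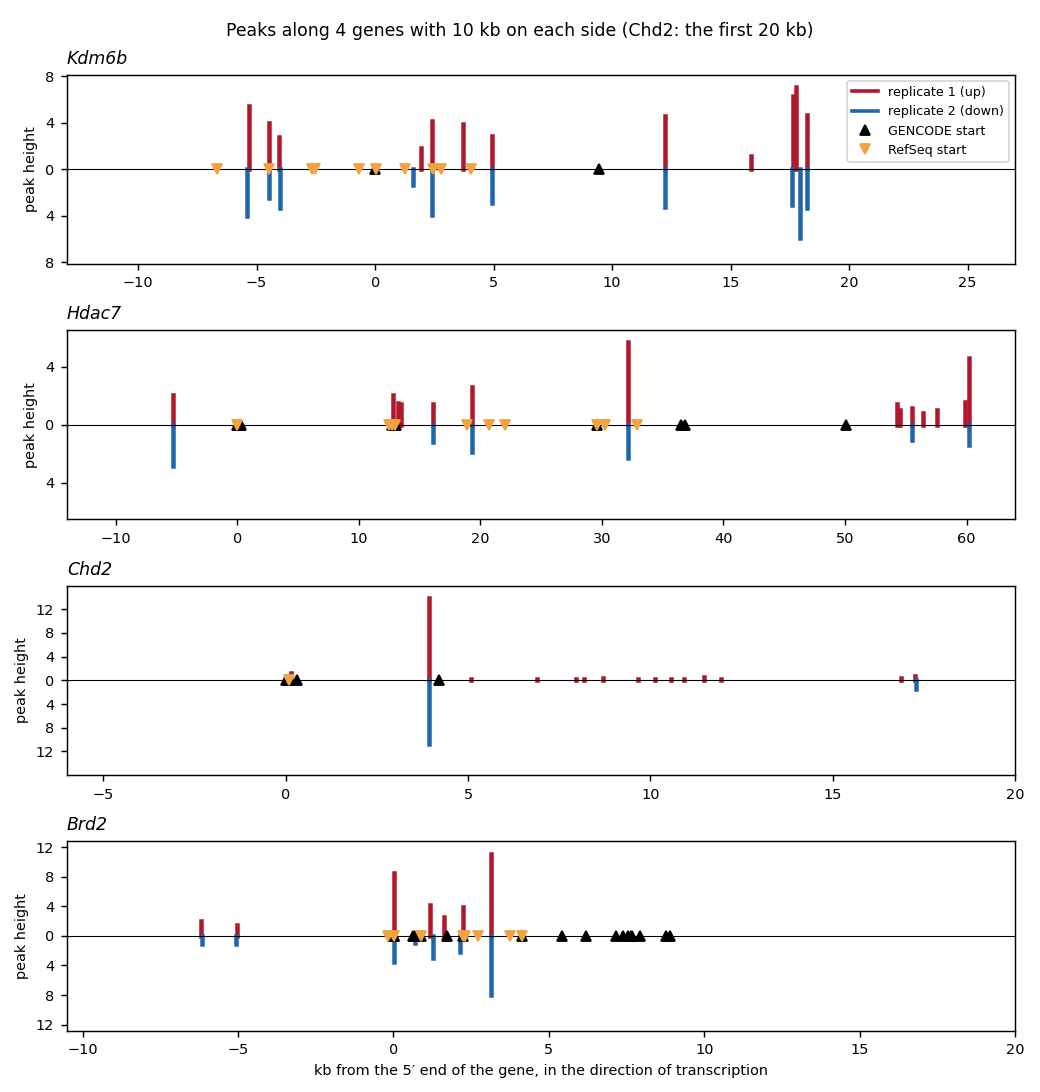
Peaks along Kdm6b, Hdac7, Chd2 and Brd2 by distance from the 5′ end of the gene in kb, with heights of replicate 1 upward and of replicate 2 downward, and GENCODE and RefSeq starts as triangles. Kdm6b has peaks upstream near a predicted RefSeq start and none at the GENCODE starts, and Chd2 has its highest peak inside the gene.

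Counting the gene body with flanks of 10 kb, members had a median of 5 and 4 peaks, and all coding genes 2 and 2. Members were also longer, with a median of 42434 against 17414 bp. Across members, Spearman's rho between gene length and number of peaks was 0.201 and 0.304 (n = 84 genes, which are not independent replicates). Peaks of the mice merged where they overlapped gave 536 sites, of which 317 (59.1%) were found in both mice, 154 in replicate 1 alone and 65 in replicate 2 alone. Of all 83641 sites of chromosomes 1 to 19 and X, 52.5% were in both. Chd9, a CHD ATPase of 226165 bp, had the most shared sites with 14, followed by Hdac4 with 11, Kdm2b and Setd1b with 9 each and Hdac9 with 8, and Kdm6b, chosen after its value was seen, also had 8. Hdac9 is the longest of these at 869516 bp and had 9 and 11 peaks, while Kdm6b is 15168 bp long. In Chd9, the peak at 79958.5 bp from the 5′ end had 4.87 and the corresponding peak in replicate 2 3.10, next to 7.67 and 3.34 at the main start.

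Away from the own starts, 308 sites lay over 1 kb from any start of the member, and 165 of them (53.6%) were found in both mice. By place, 132 were intronic (58 in both mice, 43.9%), 24 exonic, 53 upstream and 99 downstream. Of the downstream sites 60 lay within 1 kb of another coding gene's start, of the upstream sites 19, and of the intronic sites 0. The highest such sites were accordingly other genes' promoters: that of Lin37 beyond Kmt2b (7.73 and 8.07), St3gal3 beyond Kdm4a (10.1 and 5.30), Derl3 beyond Smarcb1 (6.25 and 7.09), Cyb5d1 and Naa38 beyond Kdm6b (7.07 and 5.87) and Orai3 before Setd1a (5.61 and 7.26). Without another coding start within 1 kb there were 228 sites, 111 (48.7%) of them in both mice. The highest of these were a further site upstream of Kmt2e with 8.16 and 3.97, 1420.5 bp from its start, the intronic site chr11:69366461-69366660 of Chd3 with 6.72 and 4.40, and a site 3100.5 bp upstream of Kdm5b with 5.68 and 4.40. The intronic Chd3 site was higher than the promoter of Chd3 in both mice. In 21 of 84 members (25%) no distal site was shared, and no share over all coding genes is given beside it.

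A footprint lay wholly inside 82 of the 83 highest promoter peaks of replicate 1 (98.8%) and 79 of the 81 of replicate 2 (97.5%). The shares over coding genes were 98.6% and 98.0%. The median number was 5 and 4 in members and in coding genes alike. By the sum over the mice, those with the most were Kmt5c with 9 and 12, Kdm7a with 10 and 10 and Brd2 with 11 and 9. Next, with equal sums, came Kdm4b and Kmt2b with 7 and 10 each and Kmt2c and Setd3 with 9 and 8 each. Only footprints wholly inside a peak were counted, and the widths of the peaks differ. The peaks of Kmt5c spanned 580 and 500 bp and those of Kdm7a 540 and 440 bp. Smarca5 had 11 in chr8:80739041-80739820 of replicate 1 and 1 in the narrower chr8:80739561-80739640 of replicate 2. Chd6 had 0 in replicate 1, in a peak of 80 bp. Kdm4c and Chd5 had 0 in replicate 2, in peaks of 60 and 53 bp. Patterns were searched on both strands in 300 bp centred on the highest promoter peak. GCGCATGCG was in 8.43% and 9.88% of members' peaks in replicates 1 and 2 (7 of 83 and 8 of 81), against 4.04% and 4.14% of coding genes' peaks. The counts are small. Its palindromic core lets the pattern match both strands shifted by a base, which counts as 1 member. GGGCGG was in 77.1% and 72.8%, against 69.8% and 67.2%. CCAATC was in 21.7% and 24.7%, against 20.7% and 23.5%. TGACGTCA was in 3.61% and 3.70%, against 3.89% and 4.19%. CACGTG was in 6.02% and 7.41%, against 10.5% and 11.6%, and the ETS pattern CCGGAAGT in 6.02% and 4.94%, against 8.35% and 8.92%. None of these differences was tested. The patterns AAGATGGC (YY1), TGANTCA (AP-1), CCACNAGNG (CTCF core), CTAAAAATA (MEF2) and GTTGCCATG (RFX) were in 4, 1, 2, 0 and 0 of 83 members in replicate 1, with shares over coding genes of 5.48%, 3.71%, 5.27%, 0.181% and 1.01%, and in a footprint of both mice at 0 members each, beside 1.06%, 0.0717%, 1.16%, 0.00797% and 0.55% of coding genes. CCGGAAGT was in one at 0 members too, beside 2.87%. A match describes letters and not a bound factor.

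As deposited, most heights were higher in replicate 1. Of 81 members with a peak in both mice, 71 (87.7%) were, beside 91.1% of coding genes, and the other 10 were higher in replicate 2. The median ratio of replicate 1 to replicate 2 was 1.77, against 1.65 over coding genes. After division by each library's median promoter height the members' median ratio was 1.07, and 44 of 81 (54.3%) were higher in replicate 1, beside 49.6% of coding genes. Across these members the heights of the mice correlated with a Spearman's rho of 0.796, against 0.879 across coding genes (genes, not samples). The largest ratios were those of Smarce1 with 4.94 (3.67 and 0.743), Brd7 with 4.44, Brd9 with 3.38, Kmt5b with 3.37 and Chd7 with 3.31. Those most toward replicate 2 were Chd4 with 0.726, Kmt5c with 0.793, Sirt2 with 0.865, Sirt4 with 0.906 and Setd3 with 0.916. Smarce1, a DNA-binding BAF subunit, lay below the coding medians of 4.40 and 2.65 in both mice, and further below in replicate 2. Its highest peaks in the mice, chr11:99230181-99230520 and chr11:99230422-99230560, overlap only in part. GC content moved with the ratio: among 75 members with overlapping peaks, Spearman's rho was 0.527, against 0.571 over 11543 coding genes. The median ratio was 1.01 in 15 members under 60% GC, 1.62 in 37 from 60 to under 70% and 2.29 in 23 at 70% or more. Coding genes gave 1.25, 1.61 and 2.20. Chd4 stood apart from this order, with 69.7% GC and the lowest ratio. The part of GC content in the differences between single genes was not tested.

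**Figure D3:**
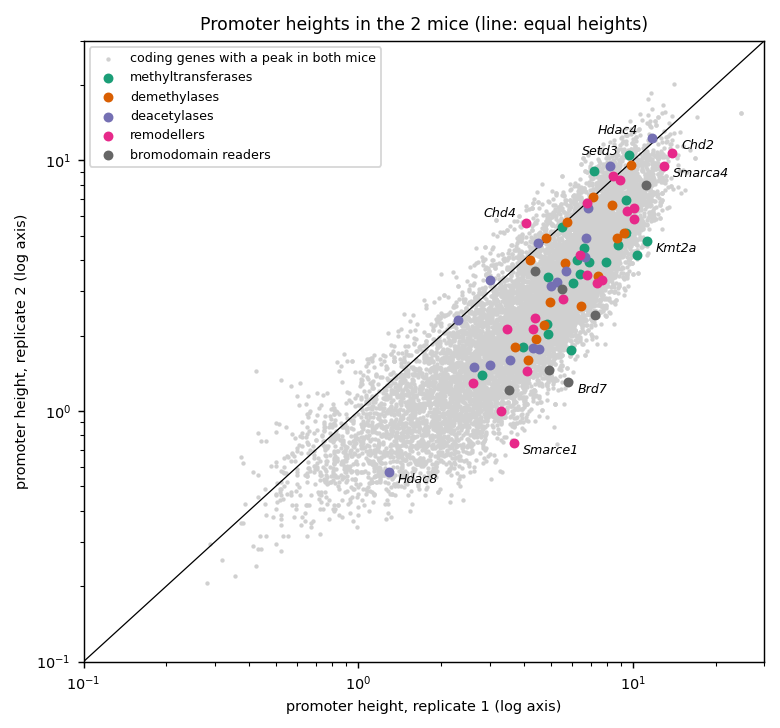
Promoter height in replicate 2 against replicate 1 on log axes, with coding genes in grey, the genes of 5 roles in colour, and a line at equal heights. Most points lie below the line, and Chd4 lies above it and Smarce1 and Brd7 far below.

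**Figure D4:**
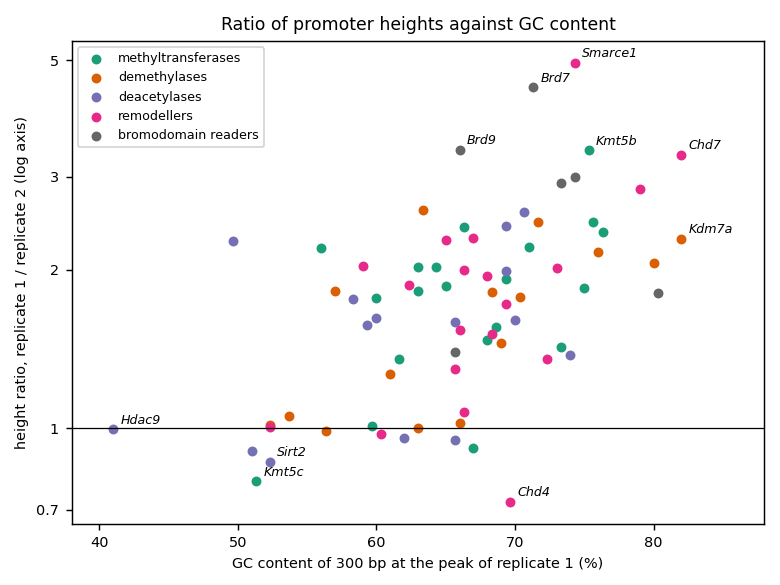
Ratio of promoter heights of replicate 1 to replicate 2 (log axis) against the GC content of 300 bp at the peak, for 75 genes whose highest peaks overlapped. Median ratios rise from 1.01 under 60% GC to 2.29 at 70% or more.

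On the X chromosome, of which a male cell has a single copy, lie Hdac6, Hdac8, Kdm5c, Kdm6a and Smarca1. Their heights with a peak in both mice were 7.14 and 7.12 for Kdm6a, 4.49 and 4.69 for Hdac6, 4.22 and 4.00 for Kdm5c and 1.29 and 0.571 for Hdac8. In the first 3 the deposited heights, not scaled between the libraries, were nearly equal in the mice. The median ratio of these 4 was 1.03, against 1.80 in 77 autosomal members and 1.44 in 402 coding genes of X, and their peaks had 49.7 to 63% GC. Kdm6a and Kdm5c are known to escape X inactivation in females, and their heights lay above the median over coding genes of X, 2.15 and 1.59, as did those of Hdac6.

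Genes whose proteins work with the members gave similar values when pooled, though the lists differed. Of 85 partner genes in 8 lists, 84 had a promoter peak in replicate 1 and 80 in replicate 2, with median heights of 5.64 and 3.09, close to those of the members. Smyd1, a methyltransferase of muscle, had none in either mouse, and Mta1, Mta3, Phf10 and Baz1a had one in replicate 1 alone. The 9 PRC2 partners had medians of 7.06 and 3.87, with Jarid2 at 9.23 and 8.16. The 11 COMPASS partners, which serve the Kmt2 and Setd1 enzymes, had 5.27 and 2.66. Of 9 acetyltransferases, Kat6b was highest with 10.4 and 13.2. The corepressor subunits Gatad2a (12.9 and 10.3) and Mbd3 (11.8 and 11.0) of NuRD stood above Chd3, Chd4, Chd5, Hdac1 and Hdac2 in both mice. The 4 neuronal BAF subunit genes all had a promoter peak in both mice, with medians of 5.11 and 2.86, against 6.74 and 3.92 for the 11 shared ones that are no members.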

How the data were processed

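DNase-seq peaks, footprints and false discovery rates of 2 libraries on GRCm38 (mm10) were used as deposited. The aligner and peak caller were not given in the sources used here. Per the deposited file list, each list came from the alignments of its own library. The deposited peak height is a signal whose normalization is not stated. The reading as cuts scaled to depth was inferred from its steps, and comparisons of heights between the mice rest on it. The deposited false discovery rate is a q-value per run of bases, listed to 0.05. The deposited footprint score was 0.01 throughout and was not used, only footprint positions. A floor of 3 cuts is a height of 0.0187 and 0.0206 in the mice, and intervals cover counting error only.

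Start sites came from GENCODE M21 for chromosomes 1 to 19 and X. Promoter height was the highest peak of the shorter list within 1 kb of any start, and gene peaks those within 10 kb of the body. Sequence came from RefSeq GRCm38.p6 and patterns were searched in 300 bp. Genes were named by a rule: the 3 highest and 2 lowest per role, members without a peak in both mice, the 5 most extreme by ratio, shared sites, distal sites and footprints, those around the median, members on X and paralog sets. Some items that the rule or the lists hold are not reported here. The members and lists were chosen with earlier results of these data known. The alternatives tried were the longer of the peak lists, the higher 50% of peaks, windows of 500 and 2500 bp, coding transcripts alone, the gene body alone, footprint overlap by 1 bp, scaled heights and leaving out each mouse, and, chosen after seeing the data, RefSeq starts and merged peaks. With 2 mice errors are SDs, and Wilson intervals count over genes. Where the labels do not separate cultures or cages, the SD covers these 2 samples only. The search was tested on simulated data, with 1800 of 1800 planted promoter peaks and 500 of 500 planted patterns found. The planted height was returned for 1795 peaks, and 9 of 1200 genes without a planted peak were reached by a neighbour's. Peaks and patterns were planted inside the searched windows, so this checks the code alone and not the data. Python 3.11.15, NumPy 2.4.6, SciPy 1.17.1, matplotlib 3.10.9 and samtools 1.23.1 were used.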

Additional observations from a re-analysis of the deposited data

Results flagged for a closer look

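Kdm6b had no promoter peak in the shorter list of either mouse, but the longer list, which the report's comparisons do not use, gave heights of 1.10 in replicate 1 and 0.915 in replicate 2 within 1 kb of its GENCODE starts. The lowest q-values there were 0.00105 and 0.0154. Smarca1, without a peak in replicate 2, had 0.392 there in the longer list, with a lowest q-value of 0.0233. Both values were listed outside the main measurement and so are given here. Kdm5d, the counterpart of Kdm5c on chromosome Y and no member because Y was set aside, had a promoter peak of 0.606 in replicate 1 and 0.599 in replicate 2, against 4.22 and 4.00 at Kdm5c.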

How the results depend on the processing

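The share of members with a promoter peak, 97.6% as the mean of the mice, was 99.4% in the longer list, 95.8% with the higher 50% of peaks and 99.4% with a window of 2500 bp. Leaving out a mouse gave 96.4 to 98.8%, a median promoter height of 3.53 to 5.75, a median of 4 to 5 peaks per member and 97.5 to 98.8% of promoter peaks with a footprint. The median number of peaks, 4.5, was 6 in the longer list, 3.5 with the higher 50% and 2.5 in the gene body alone. Promoter peaks with a footprint, 98.2%, became 100% when an overlap of 1 bp sufficed. The median ratio between the mice, 1.77, was 1.07 after division by the median promoter height of each library, and the share of members higher in replicate 1 went from 87.7% to 54.3%, so that part of the members turned toward replicate 2. RefSeq starts, chosen after seeing the data, gave 98.8% of members with a peak, and changed the height of 5 of the 65 named members by more than the SD. No paired analysis was possible because the labels give 1 group. Only 2 mice, 1 library each, limit all values, and a peak not listed is not shown to be closed. Peaks of a list may overlap and were counted apart, and merging them, also chosen after seeing the data, left the median of 4.5 as it was.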

Other observations

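Low peaks gathered in stretches of 2 members in replicate 1. Of 497 peaks in the members' bodies and 10 kb, 24 had a height under 0.5, a bound chosen after seeing the data, and 11 of these lay in 11946 bp of Chd2 introns and 9 in 6754 bp of Smarca2. In Chd2 (chr7:73524862-73536807) their heights were 0.200 to 0.462, and in Smarca2 (chr19:26730284-26737037) 0.162 to 0.393. In replicate 2 neither stretch held a peak of any height, and 19 of 396 member peaks were under 0.5, spread over 11 members. Over all peaks, 8.65% and 9.40% were under 0.5 in the mice. Chd2 had 17 peaks in replicate 1 and 4 in replicate 2, and Smarca2 18 and 8. The counts of peaks per gene in replicate 1 include these stretches.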
